A study of Rattus norvegicus with 21 samples.

Results

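The neuropeptides and marker proteins by which hippocampal inhibitory neurons are usually sorted into subtypes were followed cell by cell in 21 single neurons. The set holds 10 genes, taken by symbol from the 16245 symbols of the deposited table, and each of the 10 had 1 row. It comprises the peptide genes Sst, Npy, Pnoc, Penk and Cck, the cannabinoid receptor gene Cnr1, the secreted glycoprotein gene Reln, and the calcium-binding protein genes Calb1, Calb2 and Pvalb. Of the 10, 9 were above 0 in at least 1 cell.

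All cells came from hippocampi of embryonic day 18 Wistar rats carrying a Venus transgene of the vesicular GABA transporter (VGAT), and all were taken after 17 days in vitro by patch-clamp recording and aspiration of the cell content. The first group was 5 GABAergic neurons from purified cultures that received oligodendrocyte conditioned medium (OCM) on day 3 in vitro. The second was 5 GABAergic neurons from purified cultures without OCM. The other groups were 5 pyramidal neurons and 6 GABAergic neurons, both grown together with glial cells. Purified cultures had received the antimitotic agents FdU and U at 5 µM from 24 h after dissection, removed after 36 h. The labels mention this treatment for purified cultures only, so antimitotic treatment and lack of glia cannot be told apart. OCM was collected from oligodendrocyte cultures of postnatal day 2 Wistar cortices kept for 7 to 15 days. No label ties a cell to an animal or a culture. Each group therefore counts as 1 sample, no p-value is given, and an SD describes the spread between cells.

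As background, interneurons release GABA together with peptides, and each peptide gene encodes a precursor that is cut into the active peptide. Somatostatin (Sst), neuropeptide Y (Npy) and calbindin (Calb1) are typical of dendrite-targeting interneurons from the medial ganglionic eminence, and parvalbumin (Pvalb) of fast-spiking basket cells of the same origin. Cholecystokinin (Cck) together with the CB1 receptor (Cnr1) is typical of basket cells from the caudal ganglionic eminence. Reelin (Reln) occurs in neurogliaform cells and in some somatostatin cells, and calretinin (Calb2) in interneurons that contact other interneurons.

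The cells held 1817671 to 25160911 reads over the rows of the table, recovered from the deposited values, and 2540 to 8652 rows were above 0 per cell. The labelled identity was checked on marker genes. Gad2 and Slc32a1, which serve GABA synthesis and its loading into vesicles, were above 0 in all 16 GABAergic cells. Gad1, the other GABA-synthesising enzyme, was above 0 in 15 of them and had 0 reads in purified cell 4. Gad1 and Slc32a1 had 0 reads in all 5 pyramidal cells. Gad2 did not separate the classes fully. It was 924 and 714 in pyramidal cells 1 and 2, and its lowest value in a GABAergic cell was 898, in purified cell 5. Slc17a7, the vesicular glutamate transporter of pyramidal neurons, had 0 reads in all 16 GABAergic cells and was above 0 in 4 of the 5 pyramidal cells. Pyramidal cell 3 had 0 reads of Slc17a7 and a value of 322190 summed over 10 oligodendrocyte markers, and pyramidal cell 4 had a sum of 103570. The sum was at most 1604 in every other cell. Pyramidal cell 3 also had a sum of 64091 over the astrocyte list, mostly Apoe (59681), where every other cell had at most 3350, and of 23414 over the microglia list, including Aif1 (12526) and Tyrobp (7032), where every other cell had at most 123. In that cell 4 of the 7 microglia markers were above 0, while Cx3cr1, Csf1r and P2ry12 had 0 reads. Neurod2, from the glutamatergic list, was 1770 there, its highest value in the 21 cells. Because of the glial sums, differences of the 10 genes in pyramidal neurons are also given without pyramidal cells 3 and 4. Counts over further gene lists include them. The cells also carry letters in their titles (S, P or ech) whose meaning the labels do not give. All 5 OCM cells and 4 of the 5 purified cells are titled S, and purified cell 5 is titled P.

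Sequence around the annotated start was at hand for 4 of the 10 genes, from RefSeq on build GRCr8. It is printed for the 3 of them found at 1000 or more in the most cells, so that the start regions of Sst and Npy, found in the same cells, can be read beside that of Reln. Each stretch runs 5′ to 3′ on the gene's strand, from 150 bases before the start to the first 10 bases from it, and capitals mark TGACGTCA, the palindromic cAMP response element.
Sst, chr11:90461396-90461555, plus strand: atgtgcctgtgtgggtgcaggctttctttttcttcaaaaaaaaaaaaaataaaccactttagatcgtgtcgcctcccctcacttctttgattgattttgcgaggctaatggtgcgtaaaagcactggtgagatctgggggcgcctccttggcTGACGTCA
Npy, chr4:80211961-80212120, plus strand: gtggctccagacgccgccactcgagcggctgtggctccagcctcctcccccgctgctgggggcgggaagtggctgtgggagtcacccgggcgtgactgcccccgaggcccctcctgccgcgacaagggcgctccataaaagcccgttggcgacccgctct
Reln, chr4:13628418-13628577, plus strand: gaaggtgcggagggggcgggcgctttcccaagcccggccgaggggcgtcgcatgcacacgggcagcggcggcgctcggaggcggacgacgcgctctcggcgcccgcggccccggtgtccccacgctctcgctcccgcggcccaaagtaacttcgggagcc
The Sst stretch held the motif at bases 3 to 10 counted from the annotated start, and the Npy and Reln stretches did not hold these letters. Searched on both strands, TGACGTCA was in 612 of 33469 RefSeq promoter windows of 300 bases, or 1.83%. The GC content of the stretch was 46.3% for Sst, 72.5% for Npy and 76.9% for Reln, beside a median of 53.1% over the same stretch of all windows. A match of letters is a description, and no binding was measured here. Nor was the start of transcription, so the positions and the GC contents hold for the annotated starts only.

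Sst encodes the inhibitory peptide somatostatin and lies at chr11:80358172-80359449 of build rn6, the build of the deposited table. Its normalized value was 325053, 966, 19012, 124726 and 234564 in the 5 OCM cells. In the 5 purified cells it was 2.47, 130, 0, 0 and 243977. In pyramidal cells it was 0 except for 118 in cell 2, and in the 6 GABAergic cells grown with glia it was 49864, 1398, 3.73, 647, 21737 and 0. All OCM cells lay above 4 of the 5 purified cells, and purified cell 5 lay within the range of the OCM cells. In OCM cell 1 Sst alone took 5.11% of all reads, and in purified cell 5 it took 3.34%. Over the summed reads there were 18404 Sst reads per 1000000 reads in OCM cells (exact 95% Poisson interval 18367 to 18442) and 10103 in purified cells (10064 to 10142). There were 0.404 in pyramidal cells (0.247 to 0.625) and 2374 in GABAergic cells with glia (2364 to 2384). These intervals cover counting error only, not the spread between cells, and reads without molecular identifiers are not independent molecules.

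Npy encodes neuropeptide Y, a peptide that dampens excitatory transmission in the hippocampus, and lies at chr4:79557856-79565059 of rn6. Its values were 101264, 7269.6, 34072, 54723 and 276125 in OCM cells, and 0, 0, 3964, 0 and 185668 in purified cells. It was 0 in pyramidal cells except for 3712 in cell 4. With glia, GABAergic cells had 13216, 0, 975, 0, 39192 and 112. Npy was above 0 in 5 of 5 OCM cells, 2 of 5 purified cells, 1 of 5 pyramidal cells and 4 of 6 GABAergic cells with glia. Every OCM cell lay above every purified cell except purified cell 5. The single pyramidal cell with Npy, cell 4, was one of the 2 with high sums of glial markers.

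Pnoc encodes the precursor of nociceptin, an opioid-like peptide, and lies at chr15:48805873-48832940 of rn6. Its values were 3772, 5715, 2696, 7316 and 7412 in OCM cells. They were 0, 2.71, 288, 0 and 9482 in purified cells and 0 in all 5 pyramidal cells. The GABAergic cells with glia had 1299, 558, 1194, 8960.3, 16083 and 1184. Among the 10 genes, Pnoc was the only one above 0 in all 6 of these cells, and it was also above 0 in all 5 OCM cells. Zero of 5 pyramidal cells allows a share of cells of up to 52.2% (exact 95% binomial limit), so Pnoc was not detected there rather than shown to be absent.

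Penk encodes proenkephalin, the precursor of the enkephalin opioid peptides, and lies at chr5:17056417-17061742 of rn6. It had 0 reads in all 5 OCM cells. In purified cells it was 21284, 627, 0, 25005 and 0. In pyramidal cells it was 0 except for 2.96, from 2 reads, in cell 1. It was 667, 0, 0, 6450.5, 991 and 0 in GABAergic cells with glia. Of the 21 cells, the 2 with the most Penk were purified cells 1 and 4, and both had 0 reads of Npy.

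Cck encodes cholecystokinin and lies at chr8:130120525-130127109 of rn6. It had 0 reads in all 5 OCM cells. It was 19464 and 28143 in purified cells 1 and 2 and 0 in the other 3 purified cells. It was 1474 in pyramidal cell 4 and 0 in the other 4 pyramidal cells. Among GABAergic cells with glia it was 187 in cell 3, 183 in cell 5 and 0 in the other 4. Purified cells 1 and 2 thus lay more than 10-fold above every other cell.

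Cnr1, the gene of the CB1 receptor through which endocannabinoids reduce transmitter release, lies at chr5:49311030-49333056 of rn6. In OCM cells it was 0 except for 3.67, from 6 reads, in cell 3. It was 38420.4 and 14967 in purified cells 1 and 2, the same cells that held Cck, and 0 in the other 3. In pyramidal cells it was 12648, 708, 0, 1513 and 0. In GABAergic cells with glia it was 26228 in cell 3, 6.40 in cell 5 and 0 in the other 4. Cells at 0 occurred in every group, so all groups overlapped.

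Reln encodes reelin, an extracellular protein that guides neuron positioning and acts at synapses, and lies at chr4:9347528-9774115 of rn6. In OCM cells it was 0, 327, 0, 612 and 1078. In purified cells it was 4608, 10623, 10028, 6811 and 244. It was 0 in pyramidal cells except for 106 in cell 4. In GABAergic cells with glia it was 0, 2399, 0, 4.92, 337 and 656. Purified cells 1 to 4 held the 4 highest values of the 21 cells, while purified cell 5, the cell with high Sst and Npy, lay within the range of the OCM cells. Over the summed reads Reln made 44.7 of 1000000 reads in OCM cells (exact 95% Poisson interval 42.9 to 46.6) and 751 in purified cells (740.1 to 761).

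Calb1 encodes calbindin, a protein that buffers calcium, and lies at chr5:29538363-29562773 of rn6. It was 2583, 0, 1191, 1226 and 23555 in OCM cells and 0 in all 5 purified cells. It was 0 in pyramidal cells except for 82.6 in cell 2. In GABAergic cells with glia it was 3917 in cell 1, 4.27 in cell 5 and 0 in the other 4. Only OCM cell 2 among the OCM cells lacked it.

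Pvalb, at chr7:119428309-119443646 of rn6, had 0 reads in all OCM cells. It was 18.99 in purified cell 2, 5.87 in pyramidal cell 3, and 885 and 1138 in cells 4 and 5 of the GABAergic cells with glia. Calb2, at chr19:41482741-41509617 of rn6, had 0 reads in all 21 cells, which allows a share of up to 52.2% in each group of 5 cells and 45.9% in the group of 6 (exact 95% binomial limits). Of the 210 values of the 10 genes, 84 were above 0, and 8 of these rested on fewer than 10 reads. Whether the authors counted by strand is not stated, so reads of overlapping antisense transcripts, where there are any, cannot be told apart from those of these genes.

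**Figure D1:**
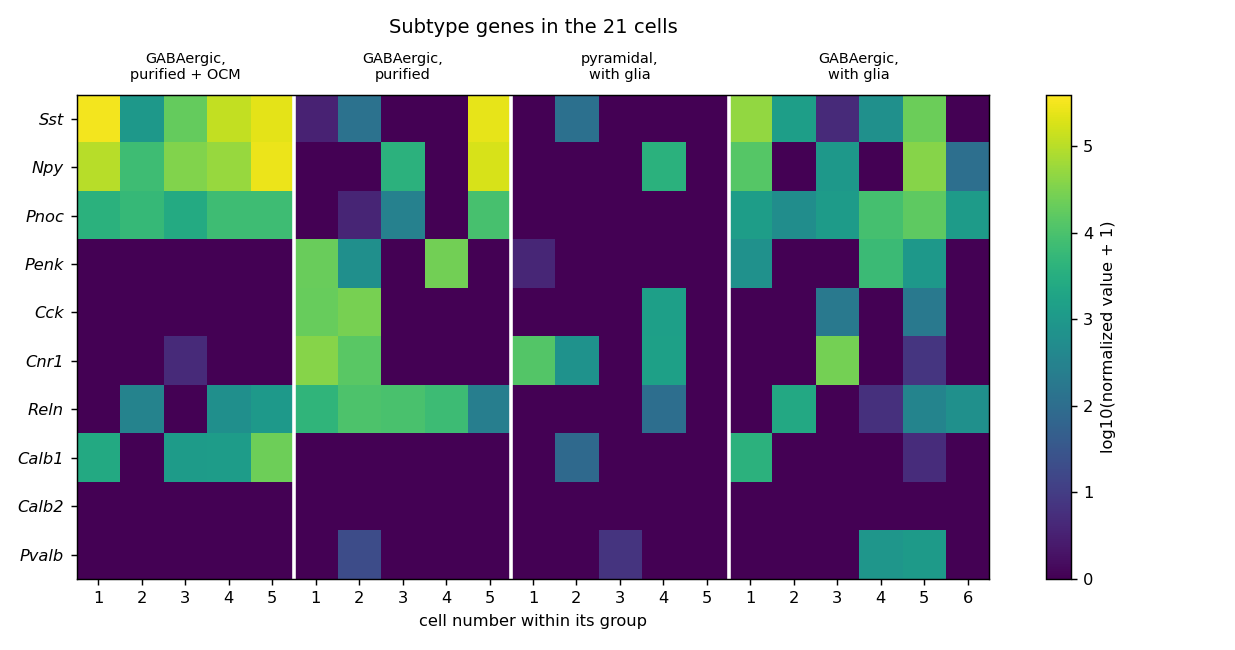
Each column is 1 of the 21 cells, in 4 groups (purified with OCM, purified, pyramidal with glia, GABAergic with glia), each row is a gene, and the colour gives log10 of the normalized value plus 1. Sst, Npy and Pnoc are above 0 in all 5 OCM cells and Penk and Cck in none of them, while Reln is 4608 or more in purified cells 1 to 4.

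**Figure D2:**
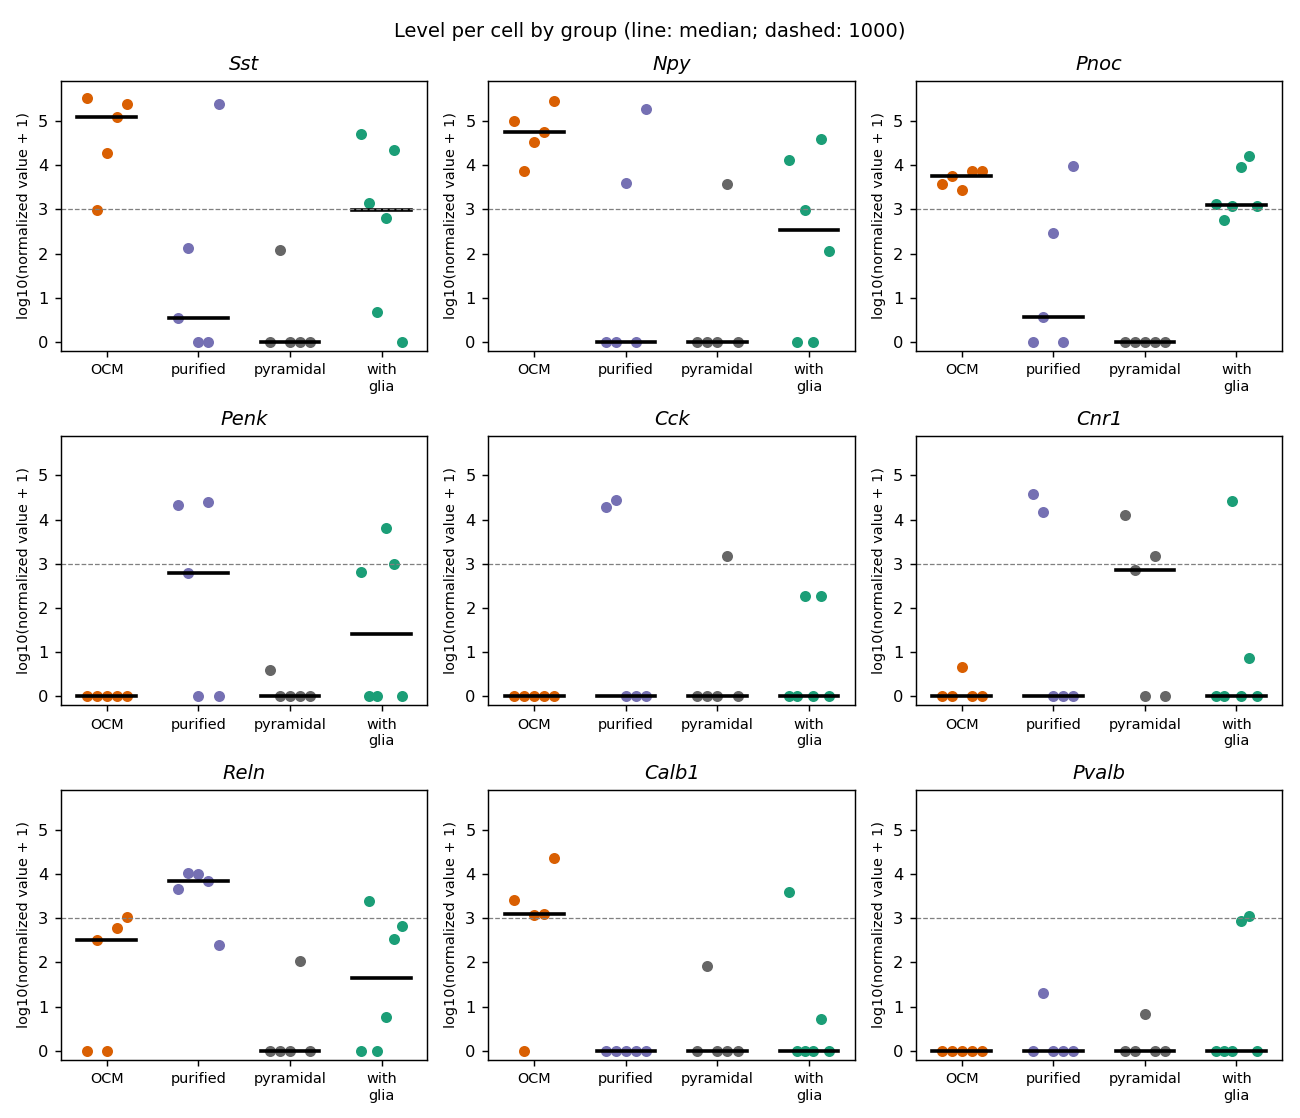
Each panel is 1 gene and each point 1 cell, with log10 of the normalized value plus 1 on the vertical axis, black lines for group medians of these logs and a dashed line at 1000. Purified cell 5 lies within the OCM values for Sst and Npy, above them for Pnoc (9482) and below the other purified cells for Reln. Calb2, at 0 in every cell, is not drawn.

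To describe combinations, a gene was counted in a cell at a normalized value of at least 1000, which keeps stray reads out. The lowest value counted rested on 695 reads. Just inside lay Reln of OCM cell 5 (1078), Pvalb of cell 5 with glia (1138) and Pnoc of cell 6 with glia (1184). Just outside lay Penk of cell 5 with glia (991), Npy of cell 3 with glia (975), Sst of OCM cell 2 (966) and Pvalb of cell 4 with glia (885). The 21 cells fell into 16 distinct combinations, cells with none of the genes counting as 1. The OCM group held 3 combinations in 5 cells, the purified group 5 in 5, the pyramidal group 3 in 5, and the GABAergic group with glia 6 in 6.

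The combination seen most often was Sst with Npy, Pnoc and Calb1, found in 4 cells, namely OCM cells 1, 3 and 4 and cell 1 with glia. OCM cell 5 had the same 4 genes and Reln. OCM cell 2 had Npy and Pnoc, with Sst just below the level. Among purified cells, cell 1 had Penk, Cck, Cnr1 and Reln, cell 2 had Cck, Cnr1 and Reln, cell 3 had Npy and Reln, cell 4 had Penk and Reln, and cell 5 had Sst, Npy and Pnoc. Pyramidal cell 1 had Cnr1, pyramidal cell 4 had Npy, Cck and Cnr1, and pyramidal cells 2, 3 and 5 had none. Among GABAergic cells with glia, cell 2 had Sst and Reln, cell 3 Pnoc and Cnr1, cell 4 Pnoc and Penk, cell 5 Sst, Npy, Pnoc and Pvalb, and cell 6 Pnoc alone. Leaving aside pyramidal cells 3 and 4, Cnr1 was the only one of the genes at this level in a pyramidal cell.

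Of the 16 GABAergic cells, 8 had Sst, 9 Npy, 11 Pnoc, 6 Reln, 5 Calb1, 3 Penk, 3 Cnr1, 2 Cck and 1 Pvalb at this level. Sst and Npy occurred together in 7 cells, which is 87.5% of the Sst cells and 77.8% of the Npy cells, and all 7 also had Pnoc. All 5 Calb1 cells had Sst, Npy and Pnoc. Both Cck cells had Cnr1 and Reln, and neither had Sst, Npy or Pnoc. Penk occurred with Reln in 2 of its 3 cells and with Pnoc in the other. Reln and Pnoc met in 1 cell. Counting any value above 0 instead, Sst and Npy occurred together in 9 cells, of 13 with Sst and 11 with Npy. The 16 cells come from 3 kinds of culture, so these counts mix differences between cells of 1 culture with differences between cultures.

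**Figure D3:**
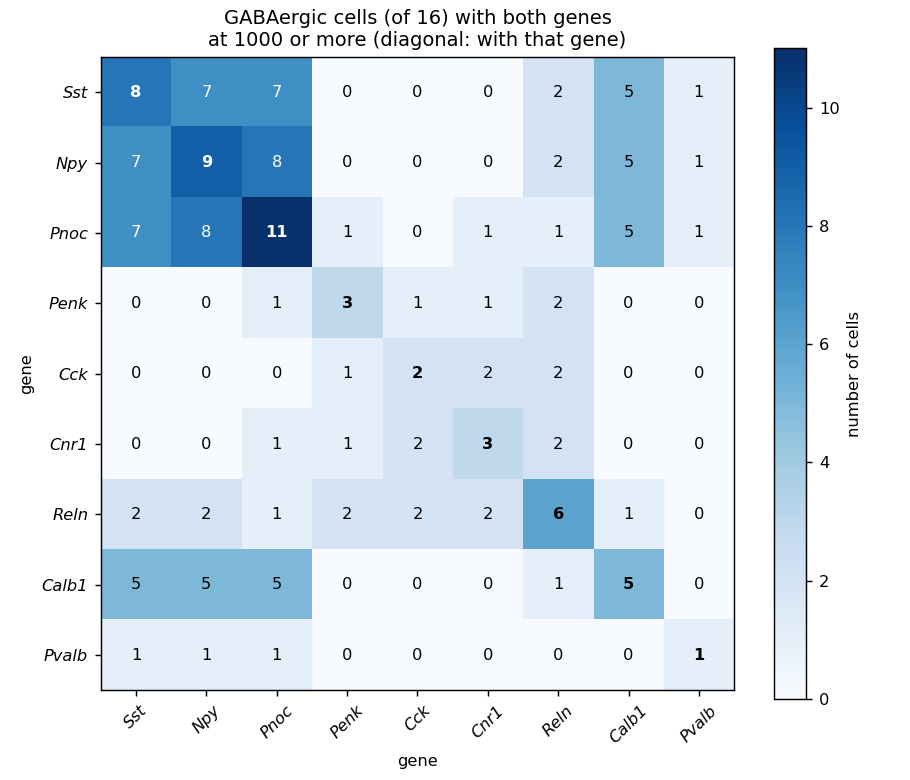
Number of the 16 GABAergic cells in which both genes of a pair were at 1000 or more, with the number for each single gene on the diagonal and darker blue for more cells. Sst, Npy, Pnoc and Calb1 share 5 to 8 cells with each other, and Cck shares 0 cells with any of the 4.

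**Figure D4:**
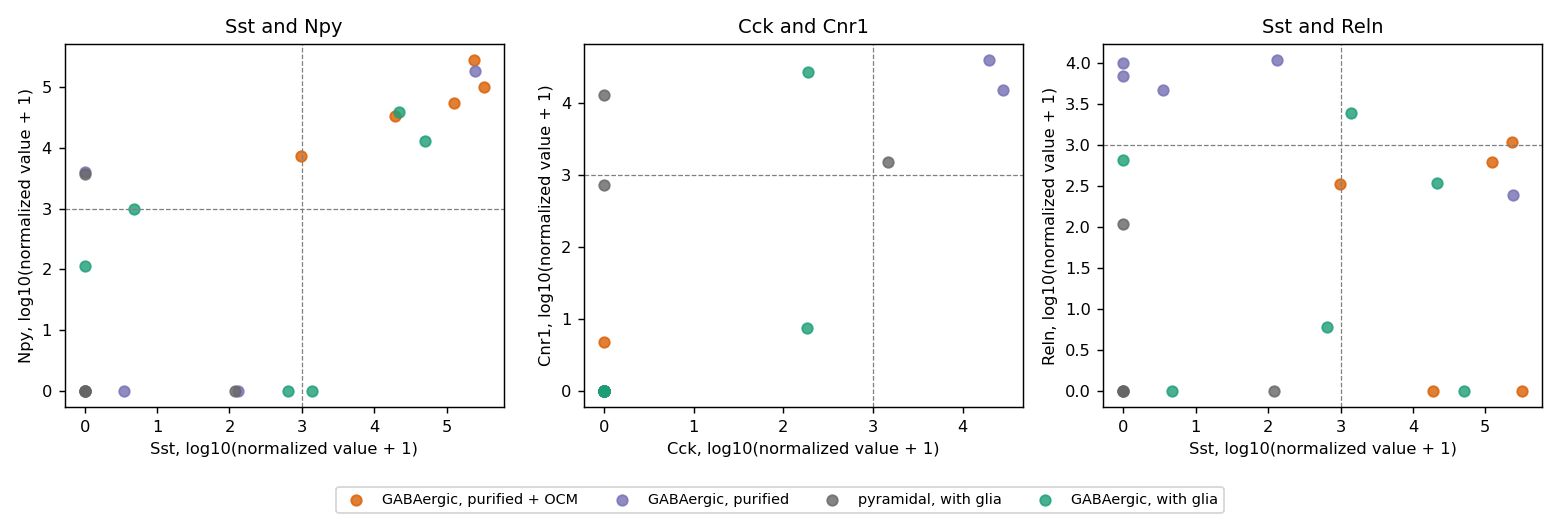
Each point is 1 of the 21 cells, coloured by group, both axes give log10 of the normalized value plus 1, dashed lines mark 1000, and points with equal values lie on top of each other. Sst and Npy are both at 1000 or more in 4 OCM cells, 1 purified cell and 2 GABAergic cells with glia, Cck and Cnr1 in 2 purified cells and 1 pyramidal cell, and the 4 purified cells with the highest Reln have an Sst value of at most 130.

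By group, cells with Sst, Npy and Pnoc together were 4 of 5 with OCM (exact 95% binomial interval 28.4% to 99.5%), 1 of 5 in purified cultures (0.505% to 71.6%), 0 of 5 pyramidal cells (up to 52.2%) and 2 of 6 GABAergic cells with glia (4.33% to 77.7%). These intervals cover counting error only, no label ties the cells to separate cultures, and the difference between groups was not tested. Adding Calb1 to the 3 genes left 4 of 5 cells with OCM, 0 of 5 purified, 0 of 5 pyramidal and 1 of 6 with glia. Cells with Cck and Cnr1 together were 0 of 5 with OCM, 2 of 5 purified (5.27% to 85.3%), 1 of 5 pyramidal and 0 of 6 with glia. Among cells titled S, Npy was at this level in 5 of 5 OCM cells and 1 of 4 purified cells, and Reln in 1 of 5 OCM cells and 4 of 4 purified cells.

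The number of these genes above 0 in a cell had a median of 5 with OCM (4 to 5), 4 in purified cultures (2 to 7), 2 in pyramidal cells (0 to 4) and 5 in GABAergic cells with glia (3 to 9). Thinned to the 1817671 reads of the shallowest cell, the medians were again 5 with OCM, 4 in purified cultures, 2 in pyramidal cells and 5 in GABAergic cells with glia. The share of a cell's reads that fell on the 10 genes was 0.216% to 6.81% with OCM, 0.213% to 6.02% in purified cultures, 0% to 0.148% in pyramidal cells and 0.0247% to 1.06% in GABAergic cells with glia.

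The series compares purified GABAergic neurons with and without OCM. Sst, Npy, Pnoc and Calb1 were higher with OCM and Penk, Cnr1 and Reln lower, each past 8-fold on a mean log scale. The size used is the difference between group means of log2(normalized value + 1), counted past 3, which is 8-fold on that scale, among genes above 0 in at least 3 cells of the 2 groups together. It largely follows in how many cells a gene was found. The differences were 10.10 for Sst, 9.77 for Npy, 7.63 for Pnoc and 9.27 for Calb1, and -7.66 for Penk, -5.38 for Cnr1 and -6.36 for Reln. Thus 4 of 7 measured members were higher, where 28.8% of the 5143 measured symbols were, and 3 were lower, where 4.47% were. Members and further lists were chosen with earlier results of these data known, so such shares, here and below, are no test. Calb1 (above 0 in 4 OCM and 0 purified cells) and Penk (0 and 3) passed the filter through 1 group alone. The same holds below for Penk with OCM against glia and for Pnoc in pyramidal cells. It also holds for several genes of the further lists. Among them are Sp9 and Vldlr with OCM against purified cells and Kit in purified cells against glia. Dlx2 and Cckbr with OCM against glia are others. With every cell of the other group at 0, the direction for such a gene was fixed by the filter. The members' median difference was 7.63, beside 1.40 over all measured symbols. Cck, Calb2 and Pvalb were above 0 in fewer than 3 cells of these groups. In each of the 7 measured genes the 2 groups overlapped.

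On the linear scale the gap for 3 of the peptides was smaller, purified cell 5 holding most of what the purified group had of them. Sst averaged 140864 ± 139091 with OCM and 48822 ± 109095 in purified cultures (SD, n = 5 cells each), a ratio of 2.89. The ratio was 2.50 for Npy and 2.75 for Pnoc. Reln averaged 403 ± 455 with OCM and 6463 ± 4250.1 in purified cultures, a ratio of 0.0624. Against a floor of 3 reads over a group without reads, the mean of Calb1 was at least 3472-fold higher with OCM. The mean of Penk was at least 10084-fold lower and that of Cck, which did not pass the filter here, at least 10232-fold lower. Such folds, here and below, cover counting error in these cells only. They leave out the spread between cells, so they are no lower bound for the kinds of culture or neuron.

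Among cells titled S alone, 5 with OCM and 4 purified, the differences were 13.23 for Sst, 12.68 for Npy, 9.77 for Pnoc, 9.27 for Calb1, -9.57 for Penk, -6.83 for Cnr1 and -7.35 for Reln. Leaving out any 1 cell kept all 7 differences past 3. Without purified cell 1 or purified cell 2, however, Penk and Cnr1 were above 0 in fewer than 3 cells and the count of lower members was 1. Penk also left the count without purified cell 4. Cnr1 left it without OCM cell 3, where its value of 3.67 rested on 6 reads. OCM cells were also deeper, with 5730139 to 12967563 reads, against 2442814 to 7821375 in purified cells. At equal depth they had more rows above 0, with a median of 4239 in OCM cells and 3414 in purified cells. The part of depth and RNA yield in these differences was not tested.

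Purified GABAergic cells were next set against GABAergic cells grown with glia. Reln and Cck were higher in purified cells and Pnoc and Sst lower. The differences were 6.64 for Reln, 3.29 for Cck, -6.51 for Pnoc and -3.33 for Sst. Of 8 measured members, 2 were higher, where 2.38% of 6302 measured symbols were, and 2 lower, where 38.4% were, a share near that of the members. The members' median was 0.30, beside -2.13 over all symbols. Penk (2.32), Cnr1 (2.89), Npy (-1.73) and Pvalb (-2.46) stayed under 3. For Npy the ratio of means was 4.25, in the other direction. Reln averaged 6463 ± 4250.1 in purified cells (n = 5) and 566 ± 936 in cells with glia (n = 6), a ratio of 11.4. Cck averaged 9521 ± 13394 in purified cells and 61.6 ± 95.4 in cells with glia, a ratio of 155.

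Reln and Pnoc kept their size without any 1 cell, at 5.59 to 7.84 and -8.65 to -5.35. Cck came to 1.18 without purified cell 1, 1.05 without purified cell 2, and 2.79 without cell 1, 2, 4 or 6 with glia. The direction for Sst depended on the measure. Its mean was 48822 ± 109095 in purified cells and 12275 ± 20284 in cells with glia, a ratio of 3.98 in the other direction that purified cell 5 carries, and without that cell the log difference was -6.47. Without purified cell 1, 3 or 4 it was -2.44 or -1.99, and without cell 1, 2 or 5 with glia it was -1.94, -2.97 or -2.18. Within cells titled S, 4 purified and 1 with glia, the differences were 3.53 for Reln, 7.26 for Cck, -7.69 for Pnoc and 2.21 for Sst, with Cck above 0 in 2 of these cells. Purified cells had a median of 5354598 reads and cells with glia one of 13884079. At equal depth the median of rows above 0 was 3414 in purified cells and 5159 with glia. The part of depth and RNA yield was not tested here either.

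OCM-treated purified cells were also set against GABAergic cells with glia, which shares both groups with the comparisons above. Npy (8.05), Calb1 (6.88) and Sst (6.77) were higher with OCM and Penk (-5.33) was lower. These are 3 of 7 measured members higher, where 5.4% of 6772 measured symbols were, and 1 lower, where 18.2% were. The members' median was 1.12, beside -0.72 over all symbols. Pnoc (1.12), Reln (0.28) and Cnr1 (-2.48) stayed under 3. Sst averaged 140864 ± 139091 with OCM and 12275 ± 20284 with glia, a ratio of 11.5, and for Npy the ratio was 10.6. Without any 1 cell the differences were 5.03 to 8.15 for Sst, 6.53 to 9.58 for Npy, 5.56 to 9.20 for Calb1 and -6.40 to -3.87 for Penk. Without cell 1, 4 or 5 with glia, Penk was above 0 in fewer than 3 cells and left the count, and without cell 1, 2, 4 or 6 with glia Cnr1 (-3.07) entered it. Within cells titled S, 5 with OCM and 1 with glia, the differences were 15.44 for Sst, 8.85 for Npy and 9.27 for Calb1. Penk was 0 in all 6 of these cells, so its difference was 0, and Reln came to -3.82.

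Pyramidal neurons were set against GABAergic neurons of the same kind of culture. Pnoc, Sst, Npy, Penk and Reln were lower in pyramidal cells and Cnr1 was higher. The differences were -11.17 for Pnoc, -7.30 for Sst, -5.24 for Npy, -4.94 for Penk and -3.91 for Reln, and 3.80 for Cnr1. Of 9 measured members 5 were lower, where 37.8% of 6571 measured symbols were, and 1 higher, where 4.02% were. The members' median was -3.91, beside -2.05 over all symbols. Pnoc was the only one of the 10 genes whose cells did not overlap, which held for 1.84% of all measured symbols in that direction, and its mean was at least 1379-fold lower against the floor of 3 reads. Cck (-0.41), Calb1 (-1.11) and Pvalb (-2.77) stayed under 3.

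Without pyramidal cells 3 and 4 the differences were -11.17 for Pnoc, -6.38 for Sst, -7.62 for Npy, -4.67 for Penk, -5.26 for Reln and 4.77 for Cnr1. Within cells titled P, 3 of each group, Pnoc (-12.44), Sst (-8.66) and Npy (-4.44) were lower, and so was Pvalb (-5.72). Penk (-7.54) was above 0 in fewer than 3 of these cells, Reln came to -1.41 and Cnr1 to -2.33. On the pyramidal side this subset held cell 5 beside cells 3 and 4, which have the high glial sums. It therefore gives no check that is free of them. Within cells titled S, 2 pyramidal and 1 GABAergic with glia, Sst (3.45) and Penk (0.99) turned to the other direction, and Pnoc (-10.21), Npy (-6.82), Reln (-9.36) and Cnr1 (11.55) kept theirs. Cnr1 also had a lower mean in pyramidal cells, 2974 ± 5444 against 4372 ± 10707 in GABAergic cells with glia, and came to 2.08 without pyramidal cell 1 and 2.85 without pyramidal cell 4. Reln came to -2.72 without cell 2 with glia. Pyramidal cells had a median of 8650220 reads and GABAergic cells with glia one of 13884079.

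Other genes by which interneuron subtypes are told apart were read from a list of 23, of which 21 had a row and 19 were above 0 in a GABAergic cell. Crhbp, which binds corticotropin-releasing hormone and marks many somatostatin cells, was 797, 0, 0, 19397 and 40967 in OCM cells. It was 1.24 in purified cell 1 and 0 in the other purified cells. It was 0 in pyramidal cells and 640.0, 0, 0, 213, 3689 and 0 in GABAergic cells with glia. Of its 7 cells above 0 in the GABAergic groups, 5 had Sst and Npy at 1000 or more. Tac1, the precursor of substance P, was above 0 in 4 GABAergic cells, at 432 in OCM cell 4, 2348 in purified cell 5, and 977 and 3971 in cells 1 and 5 with glia. All 4 had Sst, Npy and Pnoc at 1000 or more. Kit, a receptor tyrosine kinase found in neurogliaform and some basket cells, was 918, 5049 and 5.48 in purified cells 1, 2 and 3, 209 and 509 in OCM cells 2 and 3, and 0 elsewhere.

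Of this list, 2 of 5 measured genes were higher with OCM than in purified cells (Crhbp 7.61, Pthlh 4.54), where 28.8% of all symbols were, and 0 lower, with a median of 1.46 beside 1.40 for all symbols. In purified cells against cells with glia 1 of 8 was higher (Kit 4.97), where 2.38% of all symbols were, and 2 lower (Pthlh -4.96, Crhbp -4.59), where 38.4% were. With OCM against glia 1 of 5 was higher (Crhbp 3.02), where 5.4% of all symbols were, and 0 lower. In pyramidal against GABAergic cells with glia 0 of 6 were higher and 2 lower (Crhbp -4.82, Pthlh -4.26), where 37.8% of all symbols were lower. Pthlh encodes a parathyroid hormone-related peptide.

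Transcription factors of interneuron lineages were read from a list of 15, of which 13 had a row. Satb1, a chromatin organiser needed for somatostatin interneurons in mice, was 579, 257, 1643, 1480.5 and 2218 in OCM cells. It was 0 in purified cells 1 to 4 and 2685 in purified cell 5. It was 1433 in pyramidal cell 2 and 0 in the others. In GABAergic cells with glia it was 1455, 107, 144, 0, 1325 and 490.1. Among the purified cells Satb1 was thus above 0 in the cell with the highest Sst and Npy alone, while cell 3, with Npy at 3964, had 0 reads of it. In OCM against purified cells 2 of 7 measured factors were higher (Satb1 7.63, Sp9 4.27), where 28.8% of all symbols were, and 0 lower, with a median of 2.58 beside 1.40 for all symbols. In purified cells against cells with glia 0 of 7 were higher and 3 lower, led by Nr2f1 (-6.11), where 38.4% of all symbols were lower, with a median of -2.96 beside -2.13. In OCM cells against cells with glia 1 of 9 was higher (Dlx2 4.60), where 5.4% of all symbols were, and 2 lower, among them Nr2f1 (-4.46), where 18.2% were, with a median of -1.32 beside -0.72. In pyramidal against GABAergic cells 0 of 8 were higher and 6 lower, where 37.8% of all symbols were lower, with a median of -4.90 beside -2.05. Dlx1, a homeobox factor of GABAergic neurons, was at -5.40 there.

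**Figure D5:**
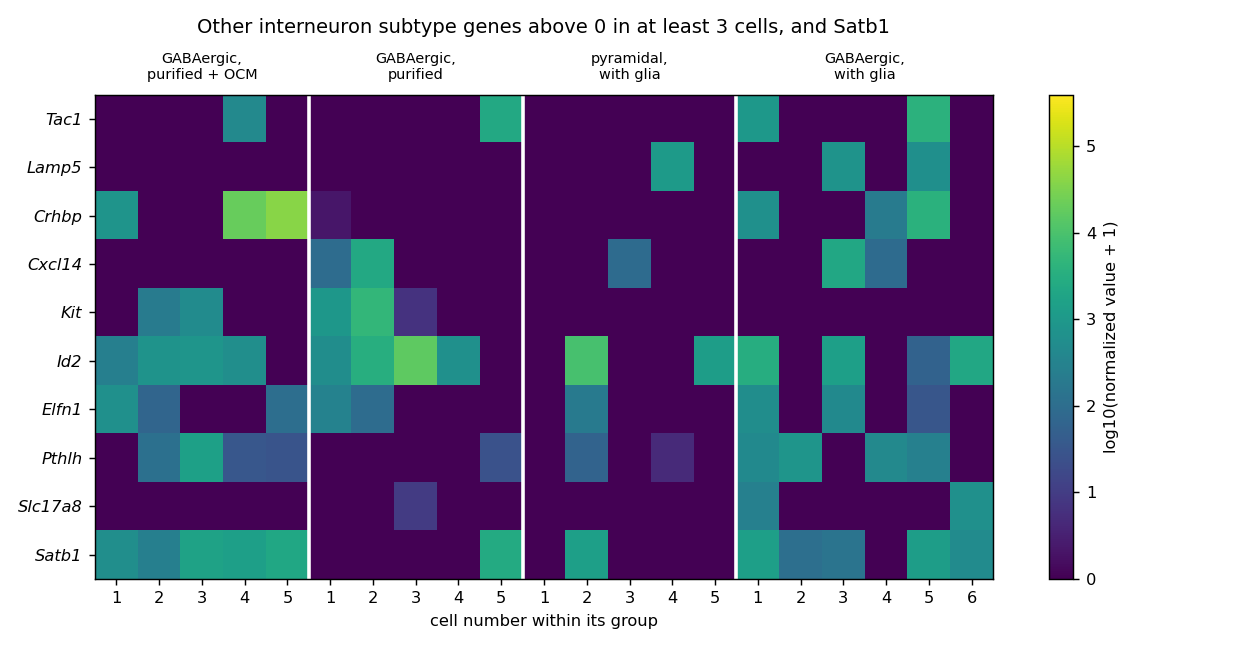
Other subtype genes above 0 in at least 3 of the 21 cells, and Satb1 in the bottom row, with columns and colour as in the heat map of the 10 genes. Satb1 is above 0 in all 5 OCM cells, in purified cell 5 alone among purified cells and in 5 of 6 GABAergic cells with glia, and Tac1 and Crhbp are brightest in cells with high Sst.

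Peptide receptors were sparse. Of 14 with a row, 10 were above 0 in any cell, and 1 to 3 were measured in a comparison. Cckbr, a receptor of cholecystokinin, had 0 reads in all OCM cells and all purified cells. It was 2648 in pyramidal cell 2, and 259, 635 and 2021 in cells 3, 4 and 5 of the GABAergic cells with glia. The difference was -4.72 both in purified cells and with OCM, each against GABAergic cells with glia, and -2.45 in pyramidal cells against them. In OCM against purified cells 0 of 1 measured receptor passed 3.

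Genes for processing and storing peptides came from a list of 15, of which 12 had a row. With OCM against purified cells 2 of 10 measured were higher, where 28.8% of all symbols were, and 0 lower, with a median of 1.76 beside 1.40 for all symbols. Scg2, a granin of dense-core vesicles, had the largest of these differences, 5.99, and Scg3 followed with 3.60. In purified cells against cells with glia 0 of 12 were higher and 6 lower, led by the prohormone convertase Pcsk1 (-6.64), where 38.4% of all symbols were lower, with a median of -2.76 beside -2.13. With OCM against glia 0 of 12 were higher and 2 lower (Pcsk1 -6.31, Pcsk2 -3.65), where 18.2% of all symbols were lower. In pyramidal against GABAergic cells 0 of 12 were higher and 9 lower, where 37.8% of all symbols were lower, with a median of -4.02 beside -2.05. Pyramidal cell 3, the cell without Slc17a7, is part of this count, which is not given without it. It had 0 reads of Scg2 and of several others of the 12, while Scg2 was 6545 to 19213 in the other pyramidal cells.

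For the partners of Cnr1 and Reln the counts were small. Dagla, the lipase that makes the endocannabinoid 2-arachidonoylglycerol, was above 0 in all 6 GABAergic cells with glia, at 421 to 2356. It was 228, 102, 329, 0 and 3.10 in OCM cells and 0, 1.36, 0, 0 and 0 in purified cells. Of 6 endocannabinoid genes, 1 of 3 measured was higher with OCM than in purified cells, where 28.8% of all symbols were, and 0 lower. In purified cells against glia 3 of 4 were lower (38.4% of all symbols), with OCM against glia 2 of 5 (18.2%), and in pyramidal against GABAergic cells 2 of 6 (37.8%), with 0 higher in each. Vldlr, a receptor of reelin, had 0 reads in all 5 purified cells, the group with the most Reln. It was 0, 1379, 1498, 0 and 375 in OCM cells and above 0 in 5 of 6 GABAergic cells with glia. It differed by 5.91 with OCM against purified cells and by -9.25 in purified cells against cells with glia. Dab1, the adaptor of reelin signalling, differed by -3.49 in purified cells and by -4.23 in OCM cells, each against cells with glia. In pyramidal against GABAergic cells Vldlr differed by -6.71 and Dab1 by -1.21.

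Of 10 further neuropeptide genes 8 had a row and 6 were above 0 in a cell, and Nxph1, a secreted ligand of neurexins, was the only one measured. It was 4164, 11237, 2113, 6650.5 and 13435 in OCM cells and 0, 0, 5028, 4118 and 3113 in purified cells. It had 0 reads in all pyramidal cells and was above 0 in 5 of 6 GABAergic cells with glia. The difference was 5.41 with OCM against purified cells, -3.51 in purified cells against cells with glia, 1.90 with OCM against glia and -10.69 in pyramidal against GABAergic cells. Purified cells 1 and 2, the Cck and Cnr1 cells, were the 2 purified cells without it.

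For each gene of the set above 0 in at least 5 of the 16 GABAergic cells, the 3 genes with the most similar pattern were sought among 5312 symbols by Pearson's r of log2(value + 1). These are descriptions over 16 libraries that differ in depth and culture. The closest were Sacm1l for Sst (r = 0.87), March2 for Npy (0.85), Gnl1 for Pnoc (0.94), Zc3hc1 for Penk (0.78), Phrf1 for Cnr1 (0.89), Saraf for Reln (0.70) and Egr4 for Calb1 (0.94). Egr4, an activity-regulated transcription factor, was above 0 in the same 6 GABAergic cells as Calb1. In pyramidal cells the match did not hold. Egr4 was 1280, 2524, 0, 1910 and 2432 there, and Calb1 was 0 except for 82.6 in cell 2. Satb1 ranked second for Npy (0.80), with both above 0 in 10 cells. Pdcd6 (0.86) and Atp5f1 (0.84) followed for Sst, LOC690871 (0.79) for Npy, and LOC100125362 (0.92) and Ntm (0.92) for Pnoc. Tfpt (0.77) and Lyplal1 (0.77) followed for Penk, Gpd2 (0.84) and Dpy19l1 (0.81) for Cnr1, Tmed4 (0.67) and Naa38 (0.63) for Reln, and Rbl2 (0.84) and Masp1 (0.81) for Calb1. Cck, Calb2 and Pvalb were above 0 in too few cells.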

How the data were processed

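Per the labels' protocols, the content of each recorded neuron was drawn into the patch electrode, its RNA amplified with the SMART-Seq v4 kit, and Nextera XT libraries read in pairs on a NextSeq500. The submitters' processing notes list build rn6, STAR 2.4.0, FastQC, Picard, SAMtools and DESeq2. Counting program, annotation and strand use were not given in the sources used here. Values, which the authors name DESeq2-normalized, were deposited as a signal per gene that is never negative. In each cell they were whole multiples of 1 step (100% within 0.05 of a whole number), which gave back whole reads and depth. Each group being 1 sample, no count test was run.

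Of 34976 rows, 18376 have no symbol and hold 11.7% to 49.9% of a cell's summed values, and 0 columns lacked a sample. Among rows of 1 symbol the one with the highest mean was kept. Levels are normalized values, differences are between group means of log2(value + 1), and thinning drew 1817671 reads per cell. Intervals are exact (Clopper-Pearson and Poisson). All 10 genes are named, of 13 further lists (127 genes) at most the 3 largest differences in a comparison, and 3 pattern neighbours per gene. A few list genes enter the counts but are not reported by name here. The members and lists were chosen with earlier results of these data known. Alternatives were another pseudocount, level, filter, size, scaling and title letter, and leaving out each cell. Leaving out pyramidal cells 3 and 4 and keeping cells titled P were chosen after seeing the data. The procedures were tested on simulated data. Software was Python 3.11.15 with pandas 2.3.3, numpy 2.4.6, matplotlib 3.10.9 and scipy 1.17.1.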

Additional observations from a re-analysis of the deposited data

Results flagged for a closer look

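In 12 of 40 looks at 1 gene in 1 group, 1 cell stood apart from the rest of its group by Dixon's criterion. Its rate of 1 in 20, or about 2 of 40, holds for normally distributed values. Here 126 of the 210 values were 0, so 12 beside 2 cannot be read as an excess. Where all other cells of a group are at 0, any single cell above 0 meets the criterion, which was so in 9 of the 12. In pyramidal cells these were Sst in cell 2 (118), Calb1 in cell 2 (82.6), Penk in cell 1 (2.96), Pvalb in cell 3 (5.87), and Npy (3712), Cck (1474) and Reln (106) in cell 4. Pyramidal cells 3 and 4 also held oligodendrocyte transcripts, and cell 3 astrocyte and microglia transcripts, whose part in these values was not tested. Among purified cells, Pvalb in cell 2 (18.99) and, on the low side, Reln in cell 5 (244) stood apart, the next lowest Reln being 4608. Cnr1 in OCM cell 3 (3.67) rested on 6 reads. Among GABAergic cells with glia, Cnr1 in cell 3 (26228) and Calb1 in cell 1 (3917) stood apart.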

How the results depend on the processing

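Each of the 31 differences was recomputed under all alternatives, 507 values in all, of which 492 stayed within 1 SD of the cells. This is a loose criterion, since the SD of the logs reached 8.30 for Npy and 7.95 for Cck in purified cells, where the size counted is 3. A difference could thus fall below 3 and still stay within 1 SD. Among differences past 3, 6 values changed sign. For Sst in purified cells against cells with glia these were 1.99 as the ratio of means and 2.21 in cells titled S. In pyramidal against GABAergic cells they were Sst (3.45) and Penk (0.99) in cells titled S, and Cnr1 (-0.56 as the ratio of means, -2.33 in cells titled P). Differences under 3 changed sign too. In cells titled S, Pvalb in purified cells against glia came to 1.08 and Calb1 in pyramidal cells to 3.19. With OCM against glia, Cnr1 came to 0.44 and Reln to -3.82 in cells titled S. By the ratio of means, Npy in purified cells against glia and Cck in pyramidal cells also changed sign. Only 1 GABAergic cell with glia is titled S.

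The median number of members in OCM cells was 4 at 10 reads or more and 4 at a value of 100 or more. By the ratio of means, 1 member was higher with OCM than in purified cells, 1 was lower in purified cells than with glia, 2 were lower with OCM than with glia and 0 were higher in pyramidal cells. In purified cells against glia, 4 were higher past a difference of 2, and 1 was lower with a pseudocount of 10 and in cells titled S. With OCM against glia, 2 were lower with no filter and 2 past a difference of 2. In pyramidal cells 0 were higher with a pseudocount of 10 and in cells titled P. In cells titled S, 2 pyramidal and 1 GABAergic with glia, 0 were higher and 0 lower. There no member was above 0 in 3 cells, so none was measured, and these counts do not mean that the differences vanished. Without the filter Pnoc (-10.21), Reln (-9.36) and Npy (-6.82) were lower and Cnr1 (11.55) higher, while Sst (3.45) and Penk (0.99) turned to the other direction. Of the 21 pattern neighbours, 9 were found again by Spearman's rho and 5 over all 21 cells. The causes were not tested.

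Without any 1 cell, members higher and lower numbered 4 to 4 and 1 to 3 with OCM against purified cells, 1 to 4 and 1 to 3 in purified cells against glia, 3 to 3 and 0 to 2 with OCM against glia, and 0 to 1 and 5 to 6 in pyramidal cells. Distinct combinations numbered 15 to 16, and median members 4.5 to 5 with OCM, 3.5 to 4.5 in purified cells, 1.5 to 2.5 in pyramidal cells and 5 to 5 with glia. Another choice of row gave no value, since each member has 1 row. No paired analysis was possible because the labels give no animal, culture or shared replicate number. With 5 or 6 cells a group, a gene in 0 of 5 cells may still be in up to 52.2% of such cells (exact 95% binomial limit).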
